A study of Mus musculus with 13 samples.

Results

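Interferon-stimulated genes are the transcripts that a cell switches on when an interferon reaches it. Here 37 of them, of the 54532 genes in the deposited table, were described in the inguinal fat of mice, a subcutaneous white adipose depot of the groin. They were taken by gene symbol, and each symbol matched 1 row. The list holds 4 transcription factors, 5 genes for the sensing of foreign RNA or DNA, 9 genes that block translation or degrade RNA, 10 other antiviral effectors, 2 genes of the ISG15 system, 5 interferon-induced GTPases and 2 chemokines. The 5 sensing genes are called sensors here, although 1 of them, Trim25, encodes a ubiquitin ligase that activates a sensor. The 5 genes called GTPases here are Gbp2, Gbp3, Gbp7, Irgm1 and Igtp. Mx1 and Mx2, which also encode GTPases, are counted with the other effectors.

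Total RNA from the fat of individual mice, collected after 12 h of fasting, was sequenced from 13 mice in 3 groups matched by weight. SC_ConD mice (n = 3) slept normally and ate chow. SF_ConD mice (n = 5) had fragmented sleep and ate chow, and SF_HPD mice (n = 5) had fragmented sleep and ate a diet with 50% of its energy from protein, 12% from fat and 38% from carbohydrate. The labels used here give no strain, sex, age or length of the sleep and diet schedules, and no group combined normal sleep with the high-protein diet.

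Type I interferons (the alpha and beta families) bind the receptor pair IFNAR1 and IFNAR2, and the kinases JAK1 and TYK2 then activate a complex that holds STAT2 and IRF9 and binds a DNA element called the interferon-stimulated response element (ISRE). Interferon gamma, made by T cells and natural killer cells, acts through IFNGR1 and IFNGR2 and on a DNA element called the gamma-activated site (GAS). In adipose tissue these programmes are known from resident immune cells as well as from fat cells, and the groin pad carries a lymph node.

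Promoter sequences were shown first because both elements can be read in them. RefSeq promoter windows of GRCm38.p6, from 250 bases before to 50 after each annotated start, were matched by symbol for 29 of the 37 members. A core ISRE was searched as GAAANNGAAA and a core GAS as TTCNNNGAA, on both strands, with overlapping matches counted. The ISRE core was in 17 of 29 members (58.6%), against 3.99% of all 27025 genes with such a window. The GAS core was in 7 of 29 (24.1%), against 9.55% of all genes. 4 members held both and 9 held neither. Windows per gene differ, and 3.44% of all 32851 single windows held the ISRE core and 8.30% the GAS core.

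By role, the ISRE core was in the windows of all 5 GTPase genes, 5 of the 8 matched genes that block translation or degrade RNA, 2 of 3 sensors, 2 of 6 other effectors, 1 of 2 chemokines and 1 of 4 transcription factors. The stretches printed here run over the 160 bases before the start site, directly upstream of the first exon, with the matched letters in capitals. They show a run of overlapping ISRE cores (Isg15), 2 separate cores (Ifit3), a GAS core joined to ISRE cores (Bst2), GAS and ISRE cores apart (Gbp7, Igtp), a GAS core alone (Irf1) and a member with no match (Cxcl9).
Isg15 (chr4:156200819-156200978, minus strand): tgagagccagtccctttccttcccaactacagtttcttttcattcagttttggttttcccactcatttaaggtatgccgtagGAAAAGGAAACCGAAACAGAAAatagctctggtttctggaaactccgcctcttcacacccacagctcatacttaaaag
Ifit3 (chr19:34583369-34583528, plus strand): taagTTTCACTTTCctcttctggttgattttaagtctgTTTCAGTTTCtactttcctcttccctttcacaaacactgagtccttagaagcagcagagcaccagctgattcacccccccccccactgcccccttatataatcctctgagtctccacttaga
Bst2 (chr8:71537473-71537632, minus strand): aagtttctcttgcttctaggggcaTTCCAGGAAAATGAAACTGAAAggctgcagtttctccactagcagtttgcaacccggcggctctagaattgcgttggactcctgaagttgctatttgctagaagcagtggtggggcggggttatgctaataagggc
Gbp7 (chr3:142530176-142530335, plus strand): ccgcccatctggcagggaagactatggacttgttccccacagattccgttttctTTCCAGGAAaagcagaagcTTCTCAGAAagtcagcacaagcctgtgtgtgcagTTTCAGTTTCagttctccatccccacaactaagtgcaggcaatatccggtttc
Igtp (chr11:58199396-58199555, plus strand): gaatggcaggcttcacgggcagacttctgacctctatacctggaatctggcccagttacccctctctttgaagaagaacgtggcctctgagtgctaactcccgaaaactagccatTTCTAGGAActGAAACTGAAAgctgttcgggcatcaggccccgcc
Irf1 (chr11:53769854-53770013, plus strand): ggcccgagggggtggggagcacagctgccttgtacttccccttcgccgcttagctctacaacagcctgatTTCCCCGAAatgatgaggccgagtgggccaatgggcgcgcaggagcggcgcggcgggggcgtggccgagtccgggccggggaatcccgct
Cxcl9 (chr5:92328080-92328239, minus strand): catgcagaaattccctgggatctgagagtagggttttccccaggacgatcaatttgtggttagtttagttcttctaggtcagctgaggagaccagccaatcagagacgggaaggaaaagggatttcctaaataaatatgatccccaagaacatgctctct

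In Isg15 the first bases of the 3 cores lie at -78, -72 and -66 from the start site, so each overlaps the next. The GAS core of Bst2 starts at -136 and runs into ISRE cores at -130 and -124. In Igtp the GAS core starts at -45 and the ISRE core at -34, and in Gbp7 the ISRE core starts at -53 and the GAS cores at -106 and -87. The only core of Irf1 in this window is the GAS at -90. A match describes letters, not a bound site, and the absence of a match in Cxcl9 says only that these letters are not in this window.

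**Figure D1:**
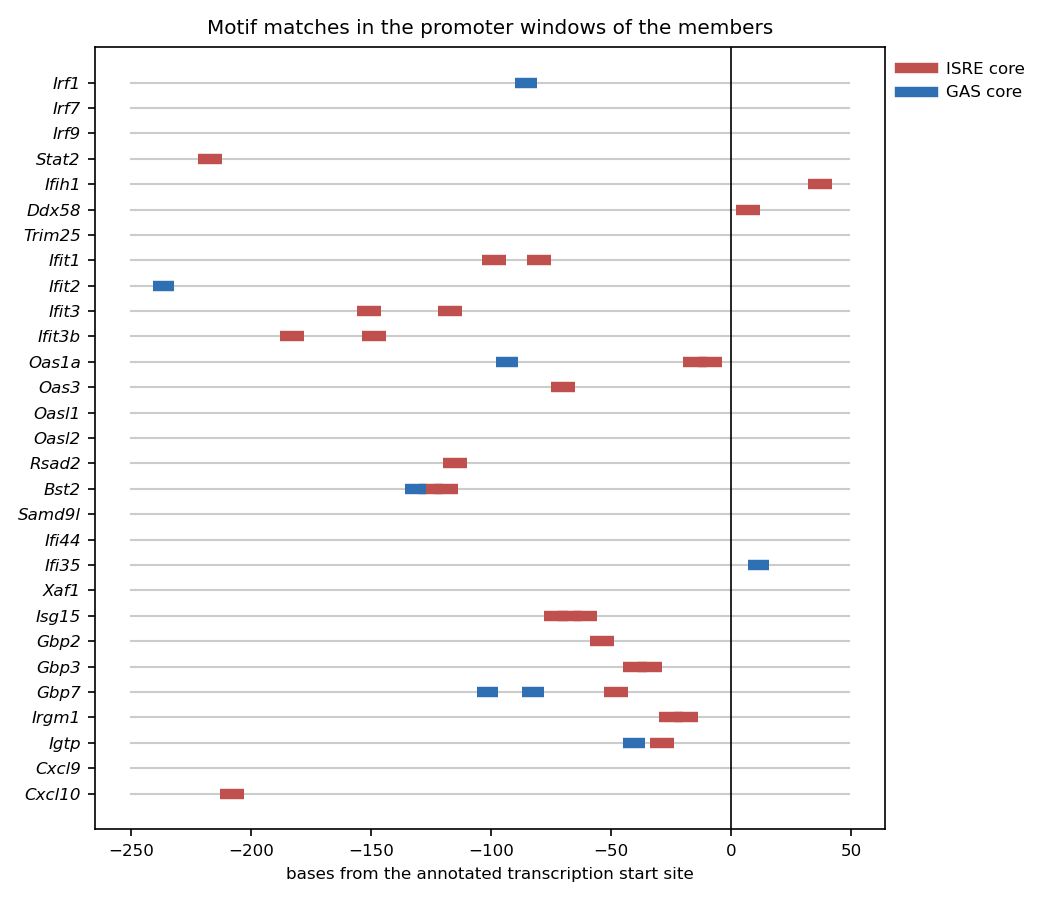
Positions of ISRE cores (red) and GAS cores (blue) in the promoter windows of the 29 matched members, in bases from the annotated start site (black line), with grey lines for the searched windows, superimposed where a gene has several start sites. 17 members hold an ISRE core, and 7 hold a GAS core.

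Several members lie in clusters of related genes. The 4 Ifit genes span 99.3 kb of chromosome 19, the 3 Oas genes 177.2 kb of chromosome 5, the 3 Gbp genes 107.7 kb of chromosome 3, and Cxcl9 and Cxcl10 27.5 kb of chromosome 5. Near copies make some counts uncertain: 51.2% of the 50-base windows of Ifit3 transcripts also occur in Ifit3b, 57.6% of those of Oas1a in Oas1g, and 11.8% of those of Igtp in Irgm2. Exons of 13 members overlap another gene's exons, and because the strand setting is not given, reads of antisense pairs cannot be told apart (Ifi35 shares 16.8% of its exonic bases with an antisense gene).

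The libraries differed in tissue content. Recovered reads on genes ran from 14815592 to 18303302 per library. The 12 adipocyte markers had a mean log2(FPKM + 1) of 8.24 to 9.70 in 12 libraries but 4.60 in SF_HPD 2, which also had the highest sum of 8 epithelial markers (6544 FPKM). The summed level of 17 B cell and lymph node markers was 812 to 3531 FPKM in SF_ConD 1, 4 and 5 and SF_HPD 4 and 5, called lymphoid-rich here, and 9.16 to 57.0 FPKM in the other 8. The 14 liver markers summed to 22308 and 12652 FPKM in SC_ConD 2 and 3 and to 286 to 6113 FPKM elsewhere. Cyp2e1 alone made up 1919 of 2049 FPKM in SC_ConD 1 and 5705 of 6113 FPKM in SF_ConD 2. Alb, another of these markers, was at 4223 and 1614 FPKM in SC_ConD 2 and 3, against 3.30 to 88.3 FPKM elsewhere. Skeletal muscle markers summed to 18620 FPKM in SF_HPD 4 and 3447 FPKM in SC_ConD 3, against 5.78 to 269.6 FPKM in the others. No SC_ConD library was lymphoid-rich, while SF_ConD 1, 4 and 5 were and SF_ConD 2 and 3 were not. This content was thus partly confounded with the sleep comparison. In bulk tissue, fewer cells of a type and less RNA per cell cannot be told apart.

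Levels are given as FPKM, fragments per kilobase of gene model scaled to a library total, and fold changes as differences of log2(FPKM + 1). Bst2 was the most abundant member by mean (126 FPKM), the only 1 above 50 FPKM. 10 members averaged at least 10 FPKM, 18 at least 5 and 32 at least 1. The 37 members together took 0.0156% of recovered reads in SF_HPD 2 and 0.0598% to 0.153% in the other 12 libraries. Genes with at least 1 FPKM in at least 3 libraries were tested, and 35 members met this. Oas2 (0 to 1.23 FPKM) and Oas3 (0 to 0.350 FPKM), both enzymes that make the 2-5A signal for RNA degradation, did not.

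Extreme values of the members gathered in a few libraries. SF_ConD 1 held the highest value of 16 members, among them Irf7, Ifit1, Oas1a, Bst2 and Cxcl10. SC_ConD 2 held that of 11, among them Isg15, Gbp2, Gbp7, Igtp, Irgm1 and Cxcl9. These ranks are by FPKM, whose implied library total was 0.585 times the recovered reads in SC_ConD 2 and 0.848 times in SF_ConD 1. Isg15 had 445 of 15865457 reads in SC_ConD 2 and 516 of 17840847 in SF_ConD 1. Its rank thus does not hold per recovered read. SF_HPD 2 held the lowest value of 24 members. By group mean FPKM, SF_HPD was lowest in 29 of 37 members and highest in none, while SF_ConD was highest in 20 and SC_ConD in 17.

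**Figure D2:**
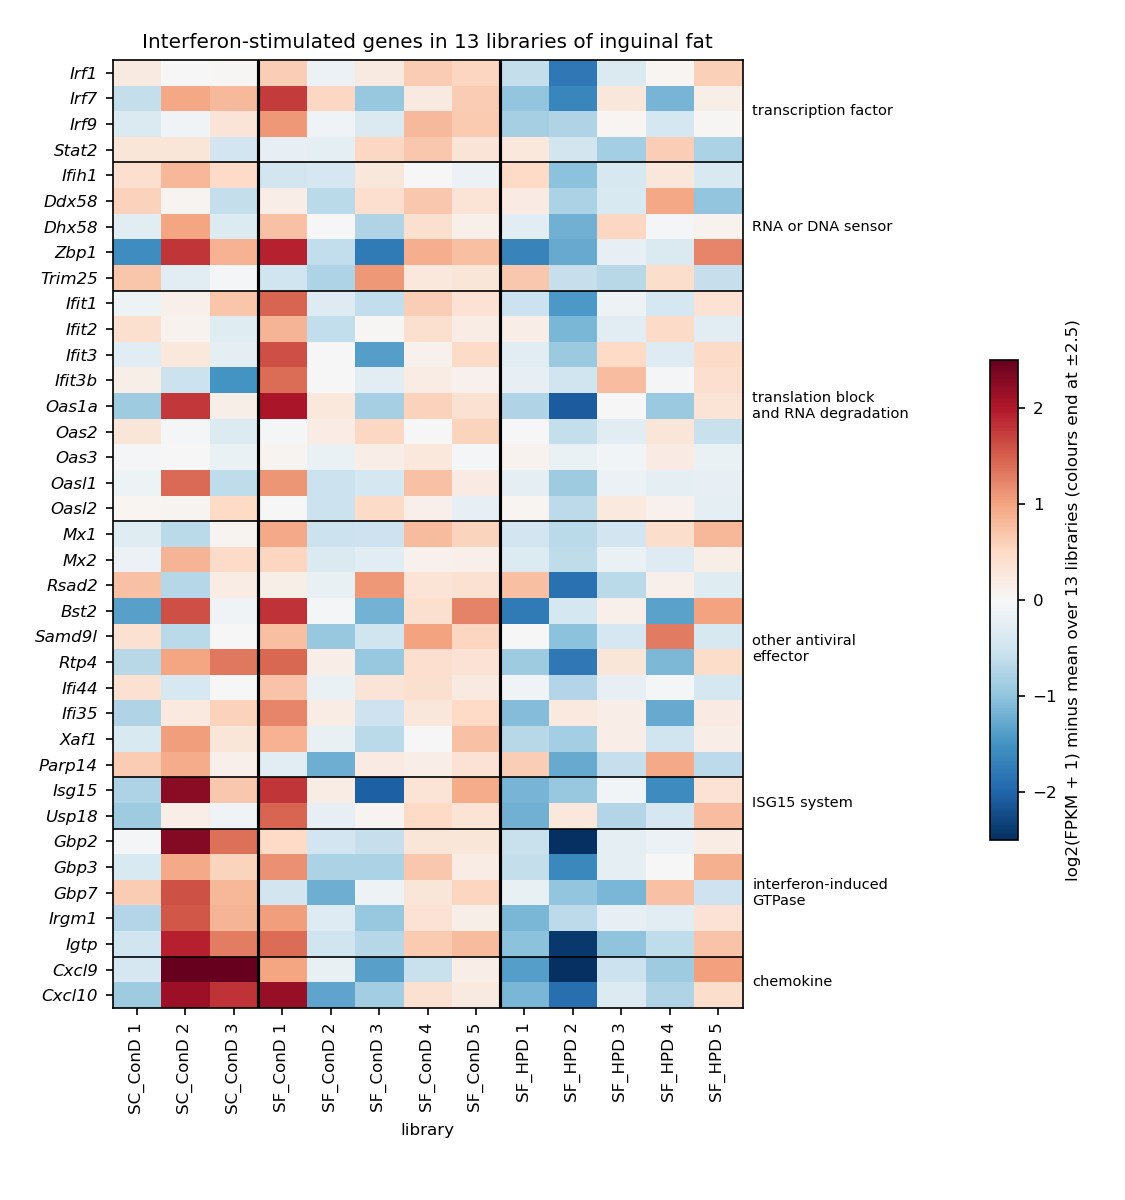
Heatmap of log2(FPKM + 1) minus the mean over 13 libraries for the 37 members (rows, grouped by role) in each library (columns, grouped by SC_ConD, SF_ConD and SF_HPD), red above and blue below the mean. SF_ConD 1 and SC_ConD 2 hold the highest values of 16 and 11 members, and SF_HPD 2 the lowest of 24.

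Averaged over all 37 members, log2(FPKM + 1) was 2.81 ± 0.47 (SD, n = 3) in SC_ConD, 2.69 ± 0.53 (SD, n = 5) in SF_ConD and 2.13 ± 0.48 (SD, n = 5) in SF_HPD. The ranges overlapped: 2.32 to 3.25, 2.12 to 3.36 and 1.37 to 2.63. Among lymphoid-rich libraries this average was 2.89 to 3.36 in SF_ConD and 2.33 to 2.63 in SF_HPD, over 3 and 2 libraries, without overlap. Their lymphoid content was not matched. The average of the B cell, lymph node, T and natural killer cell markers was 4.22 to 4.93 in SF_ConD and 3.69 to 4.03 in SF_HPD there. Among the other libraries the average of the members was 2.32 to 3.25 in SC_ConD, 2.12 to 2.17 in SF_ConD and 1.37 to 2.29 in SF_HPD. No test was made of these averages, since the list was proposed with results of these data known.

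**Figure D3:**
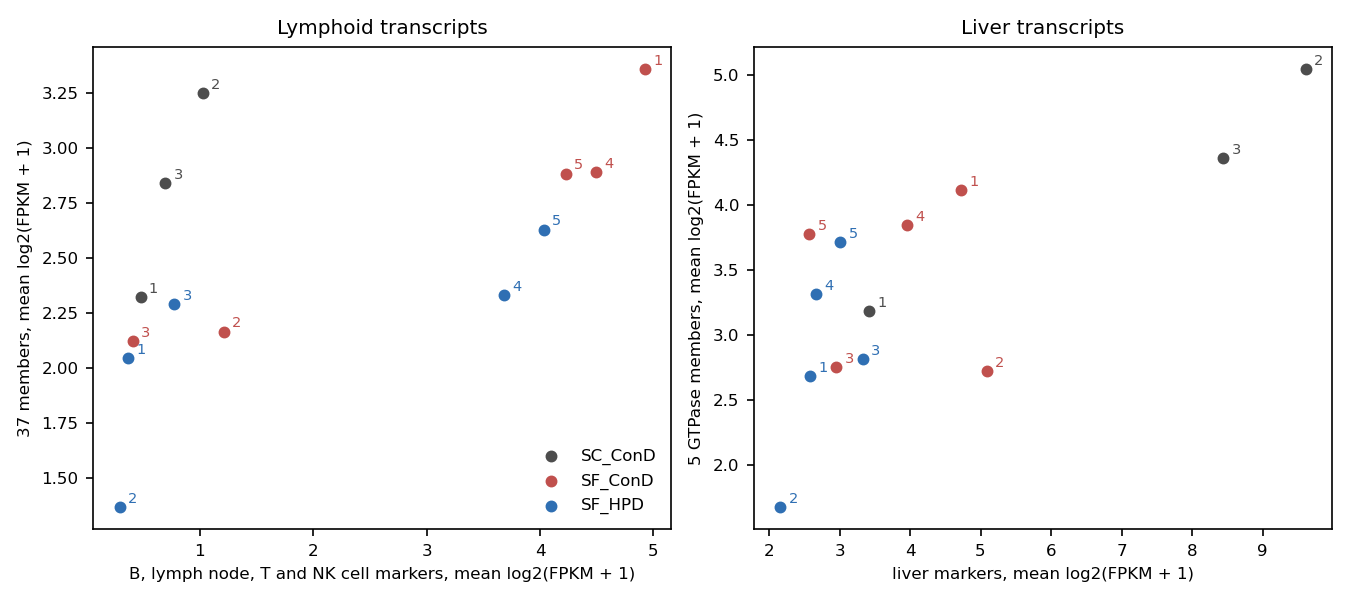
Left, mean log2(FPKM + 1) of the 37 members against that of 36 B cell, lymph node, T and natural killer cell markers. Right, that of the 5 GTPase members against 14 liver markers, with points as libraries numbered by replicate. The 5 lymphoid-rich libraries sit at 3.69 to 4.93 on the left axis and at 2.33 to 3.36 for the members, and SC_ConD 2 and 3 sit apart at 9.61 and 8.44 on the liver axis.

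The first comparison, SF_ConD against SC_ConD, asks how the genes differ with fragmented sleep on chow. Members went both ways: 18 of 35 lay lower and 17 higher, with a median log2 fold change of -0.01, against -0.03 over all 14421 genes tested, of which 52.6% lay lower. The GTPase and chemokine genes lay lower (5 of 5, median -0.58, and 2 of 2, median -1.65), while the 4 transcription factors lay higher (median 0.23), and these directions held after TPM scaling, median-of-ratios scaling and voom. Of the Mx genes, counted with the other effectors, Mx1 lay higher (0.55) and Mx2 lower (-0.38). Without SC_ConD 2 and 3, which leaves 1 SC_ConD library assumed to vary like the other groups, Cxcl9 turned to 0.23 and Gbp2 to 0.061. The median of the members ran from -0.63 without the lymphoid-rich libraries and -0.52 with lymphoid marker level as a covariate to 0.39 without SC_ConD 2 and 3, and from -0.31 (without SC_ConD 1) to 0.17 (without SF_ConD 2) with 1 library left out. None of the 35 passed limma's test at a Benjamini-Hochberg adjusted p of 0.05, and neither did any gene (0% called), also with voom on recovered reads. Without SC_ConD 1, which leaves only SC_ConD 2 and 3 in their group, 194 of the 14421 genes passed, 0 of them members. At an unadjusted p under 0.05, 2 members were lower (Gbp7 and Cxcl9) and 0 higher, beside 3.15% of all genes lower and 2.59% higher.

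The second comparison, SF_HPD against SF_ConD, asks how they differ with the high-protein diet under fragmented sleep. All 35 members tested lay lower in SF_HPD, with a median of -0.55, against 0.01 over all genes, of which 48.1% lay lower. Furthest from 0 were Igtp, a GTPase (-1.21), Oas1a, a maker of 2-5A (-1.17), and Irf7, a factor that amplifies interferon production (-1.11). By role the medians ran from -0.28 in the sensors to -0.80 in the transcription factors, -0.80 in the ISG15 system and -0.91 in the chemokines. None passed the adjusted threshold, and no gene did (0% called), also with voom. At an unadjusted p under 0.05, 2 members were lower (Irf9 and Ifi44) and 0 higher, beside 1.06% and 0.832% of all genes, and no member was free of overlap between the groups, beside 0.229% of all genes that were lower without overlap. The shared direction did not hold throughout: 3 members lay higher after scaling to TPM, 0 to 4 with 1 library left out, 7 with lymphoid marker level as a covariate (median -0.28) and 8 without the lymphoid-rich libraries (median -0.10). Within the lymphoid-rich libraries alone the median was -0.41, with 2 members higher, and without SF_HPD 2 and 4 it was -0.41, with 5 higher. Even among the lymphoid-rich libraries, the average of the lymphoid markers was higher in every SF_ConD library than in any SF_HPD library.

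The third comparison, SF_HPD against SC_ConD, differs in both sleep and diet and shares its groups with the others, so it is not independent of them. 32 of 35 members lay lower, with a median of -0.56 (0.02 over all genes, of which 48.2% lay lower). The exceptions, chosen by their sign, were Ifit3b, Mx1 and Usp18. The GTPases (5 of 5 lower, median -1.44) and chemokines (2 of 2, median -2.55) lay furthest from 0. None passed with all libraries, and no gene did (0% called), also with voom. At an unadjusted p under 0.05, 6 members were lower (Cxcl9, Gbp7, Gbp2, Igtp, Ifih1 and Mx2) and 0 higher, beside 2.67% and 1.01% of all genes. No member was lower without overlap, beside 0.853% of all genes. Without SC_ConD 2 and 3, which held the most liver transcripts, a single SC_ConD library remained, the median was -0.12 and 14 of the members tested lay higher. Without SC_ConD 1, 196 of the 14421 genes passed, of which 1 was a member, Cxcl9 (log2 fold change -4.67, SE 0.999, limma adjusted p = 0.0406, against a range of 0.0406 to 1 over all alternatives). That fit leaves only SC_ConD 2 and 3 in their group. Cxcl9 was at 292 and 172 FPKM in these, against 13.6 FPKM in SC_ConD 1.

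**Figure D4:**
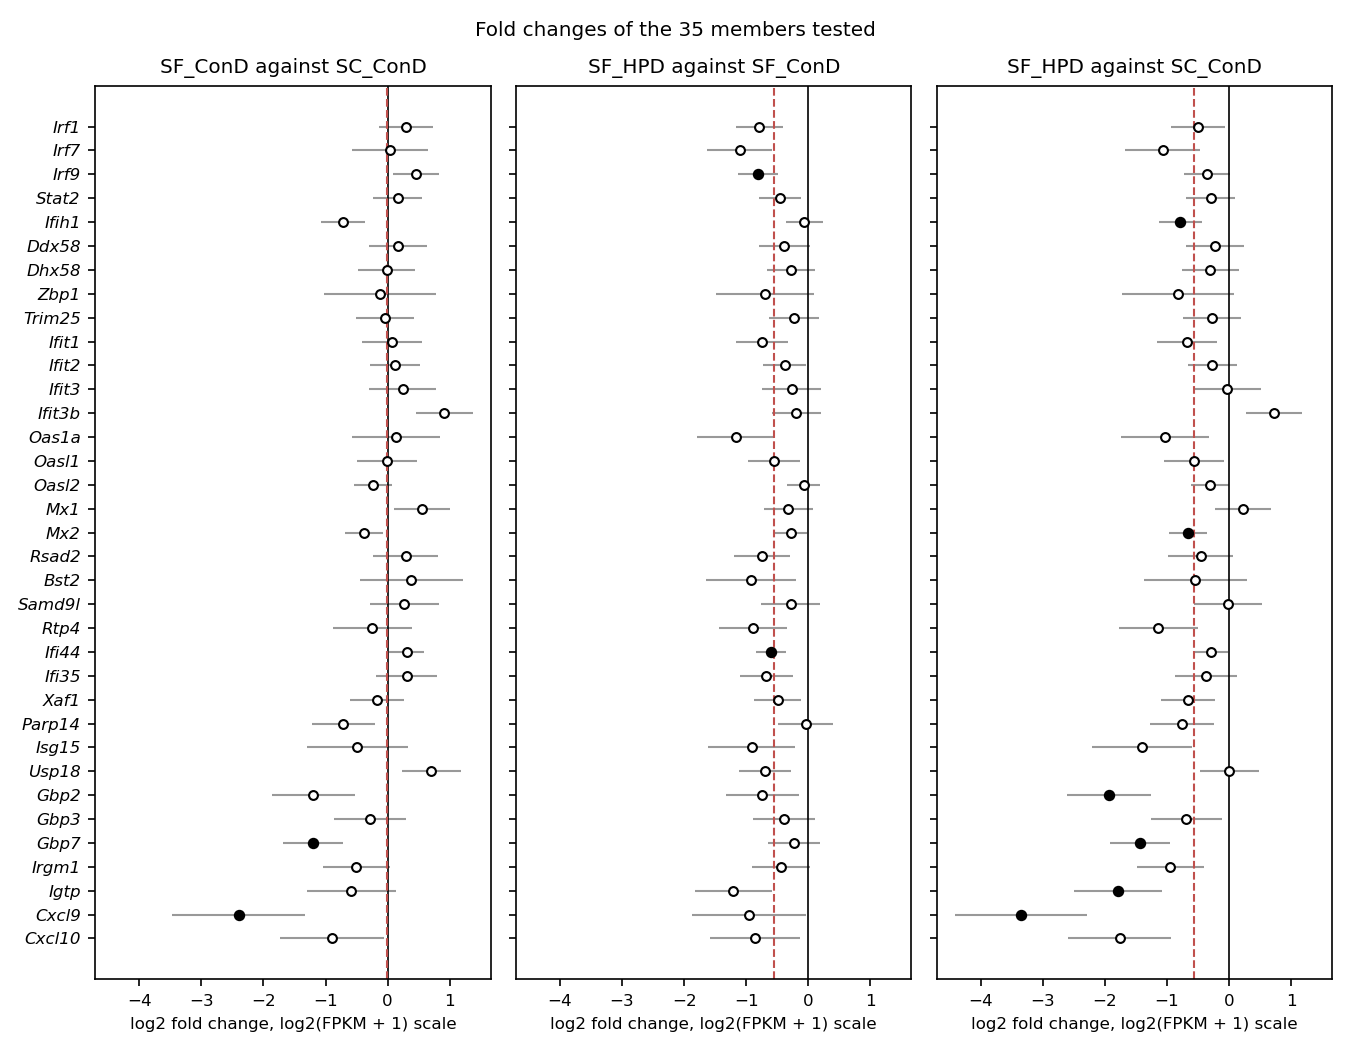
Log2 fold change (points) with its SE (bars) of the 35 members tested, in the 3 comparisons, on the log2(FPKM + 1) scale. Filled points have an unadjusted p under 0.05, the dashed red line is the median of the members (-0.01, -0.55 and -0.56), and all points of SF_HPD against SF_ConD lie left of 0, without any passing the adjusted threshold.

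Among the transcription factors, Irf7, the factor that amplifies interferon production, was at 7.13, 23.1 and 20.6 FPKM in SC_ConD 1 to 3, 40.4, 16.6, 5.34, 13.4 and 18.1 FPKM in SF_ConD 1 to 5, and 5.21, 2.97, 13.9, 4.51 and 12.6 FPKM in SF_HPD 1 to 5. SF_ConD 1 stood highest and SF_HPD 2 lowest, and each group overlapped the others. The difference between SF_HPD and SF_ConD was -1.11 (SE 0.52, limma adjusted p = 0.99999). Irf9, which gives the type I complex its DNA contact, was at 5.48, 6.88 and 9.41 FPKM in SC_ConD 1 to 3, 16.7, 6.83, 5.46, 13.7 and 12.1 FPKM in SF_ConD 1 to 5, and 3.69, 3.92, 7.58, 5.16 and 7.45 FPKM in SF_HPD 1 to 5. The 3 lymphoid-rich SF_ConD libraries were the 3 highest, above every SF_HPD library, while SF_ConD 2 and 3 lay inside the SF_HPD range. Irf9 differed by -0.81 (SE 0.32, limma adjusted p = 0.99999) between SF_HPD and SF_ConD, the smallest unadjusted p of the members there (0.0253).

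Irf1, a factor known to be induced by interferon gamma, with the GAS core printed above, was at 16.6, 13.8 and 14.2 FPKM in SC_ConD 1 to 3, 22.03, 12.6, 16.4, 22.3 and 20.7 FPKM in SF_ConD 1 to 5, and 8.94, 3.34, 10.7, 14.5 and 21.6 FPKM in SF_HPD 1 to 5. SF_ConD 1, 4 and 5 again lay at the top together with SF_HPD 5, and SF_HPD 2 lay below all others. The difference between SF_HPD and SF_ConD was -0.79 (SE 0.38, limma adjusted p = 0.99999). Stat2, a subunit of the type I complex, was at 3.74, 3.74 and 1.77 FPKM in SC_ConD 1 to 3, 2.33, 2.22, 4.49, 5.10 and 3.79 FPKM in SF_ConD 1 to 5, and 3.59, 1.79, 1.13, 4.88 and 1.23 FPKM in SF_HPD 1 to 5. Its values spread from 1.13 to 5.10 FPKM with full overlap of the groups.

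Of the sensors, Ifih1 encodes MDA5, which binds long double-stranded RNA. It was at 3.71, 5.23 and 3.91 FPKM in SC_ConD 1 to 3, 1.57, 1.64, 3.27, 2.54 and 2.18 FPKM in SF_ConD 1 to 5, and 3.93, 0.736, 1.67, 3.29 and 1.70 FPKM in SF_HPD 1 to 5. All 3 SC_ConD libraries lay above all 5 SF_ConD libraries, while SF_HPD 1 lay within the SC_ConD range. Only Ifih1 and Gbp7 among the 35 members were lower without overlap in SF_ConD than in SC_ConD, beside 1.92% of all genes. The differences were -0.72 (SE 0.35, limma adjusted p = 0.872) for SF_ConD and -0.78 (SE 0.35, limma adjusted p = 0.99991) for SF_HPD, each against SC_ConD. Ddx58, the gene of the short RNA sensor RIG-I, ranged from 0.672 to 5.45 FPKM, Dhx58 from 0.247 to 4.67, the Z-nucleic acid sensor Zbp1 from 0.503 to 18.3, and Trim25, the ubiquitin ligase that activates RIG-I, from 4.28 to 18.2 FPKM.

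Zbp1 had the widest range of these and was highest in SF_ConD 1 and SC_ConD 2. Ddx58 was highest in SF_HPD 4 and Trim25 in SF_ConD 3, so the sensors did not share an order of libraries.

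The Ifit genes encode proteins that bind viral RNA ends and block translation. Ifit1 was at 2.86, 3.61 and 5.86 FPKM in SC_ConD 1 to 3, 10.6, 2.37, 1.75, 5.44 and 4.42 FPKM in SF_ConD 1 to 5, and 1.89, 0.565, 2.84, 2.09 and 4.41 FPKM in SF_HPD 1 to 5, and Ifit3 at 7.99, 12.2 and 8.37 FPKM in SC_ConD 1 to 3, 32.4, 9.87, 3.20, 10.8 and 14.4 FPKM in SF_ConD 1 to 5, and 8.10, 4.77, 14.4, 7.74 and 14.4 FPKM in SF_HPD 1 to 5. SF_ConD 1 was highest for both, and the SF_ConD and SF_HPD values overlapped with or without it. Ifit3b, the near copy of Ifit3, was at 2.25, 1.02 and 0.0440 FPKM in SC_ConD 1 to 3, 6.80, 1.91, 1.46, 2.35 and 2.17 FPKM in SF_ConD 1 to 5, and 1.57, 1.10, 4.03, 1.88 and 2.93 FPKM in SF_HPD 1 to 5. It was the member furthest above 0 in SF_ConD against SC_ConD, at 0.92 (SE 0.46, limma adjusted p = 0.875), and its low value in SC_ConD 3 rested on 1 read. That difference was 0.48 without SC_ConD 3, and it ran from 0.14 (without SC_ConD 2 and 3) to 2.504 (voom) over all alternatives. Ifit2 ranged from 0.853 to 6.39 FPKM.

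Oas1a makes 2-5A, which activates RNase L. It was at 1.57, 15.3 and 4.25 FPKM in SC_ConD 1 to 3, 18.5, 4.69, 1.69, 6.11 and 5.17 FPKM in SF_ConD 1 to 5, and 1.81, 0.123, 3.74, 1.51 and 5.03 FPKM in SF_HPD 1 to 5. SF_ConD 1 and SC_ConD 2 stood far above the rest, and SF_HPD 2 had 2 reads. The difference between SF_HPD and SF_ConD was -1.17 (SE 0.61, limma adjusted p = 0.99999). Of the Oas-like genes, Oasl1, which restrains Irf7 translation, ranged from 0.177 to 4.79 FPKM and Oasl2 from 0.671 to 2.70 FPKM.

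Among the other effectors, Bst2 encodes tetherin, which holds budding virions on the cell. It was at 35.8, 288 and 88.1 FPKM in SC_ConD 1 to 3, 330.1, 90.4, 40.6, 123 and 220.3 FPKM in SF_ConD 1 to 5, and 26.9, 68.95, 102, 36.4 and 187 FPKM in SF_HPD 1 to 5. The groups overlapped throughout, and SF_ConD 1, SC_ConD 2, SF_ConD 5 and SF_HPD 5 were the 4 highest. Mx2, a dynamin-like GTPase that blocks viral nucleocapsids, was at 0.410, 1.82 and 1.17 FPKM in SC_ConD 1 to 3, 1.24, 0.204, 0.275, 0.671 and 0.698 FPKM in SF_ConD 1 to 5, and 0.233, 0, 0.382, 0.241 and 0.726 FPKM in SF_HPD 1 to 5. It was low everywhere, with 68 reads at most, and differed by -0.66 (SE 0.30, limma adjusted p = 0.99991) between SF_HPD and SC_ConD. Ifi44 was at 1.17, 0.263 and 0.646 FPKM in SC_ConD 1 to 3, 1.74, 0.470, 1.08, 1.19 and 0.937 FPKM in SF_ConD 1 to 5, and 0.558, 0, 0.442, 0.615 and 0.230 FPKM in SF_HPD 1 to 5, and differed by -0.60 (SE 0.25, limma adjusted p = 0.99999) between SF_HPD and SF_ConD. The Ifi44 value of SF_ConD 2 lay below those of 2 SF_HPD libraries.

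The remaining effectors were Mx1 (0 to 2.09 FPKM), Rsad2, the gene of viperin (0.240 to 8.63), Samd9l (1.77 to 12.9), Rtp4 (2.11 to 28.2), Ifi35 (7.62 to 47.4), Xaf1 (1.45 to 8.17) and Parp14, an ADP-ribosyltransferase (1.02 to 8.30).

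Isg15 encodes the ubiquitin-like protein that is joined to other proteins in infected cells. It was at 6.91, 63.4 and 20.5 FPKM in SC_ConD 1 to 3, 45.1, 14.3, 2.28, 15.96 and 24.4 FPKM in SF_ConD 1 to 5, and 5.02, 5.96, 11.8, 3.53 and 16.3 FPKM in SF_HPD 1 to 5. SC_ConD 2 and SF_ConD 1 were the 2 highest, and the lowest was not an SF_HPD library but SF_ConD 3. Group means were 30.3 ± 29.5 FPKM (SD, n = 3) in SC_ConD, 20.4 ± 15.9 (SD, n = 5) in SF_ConD and 8.51 ± 5.35 (SD, n = 5) in SF_HPD, so the SD was close to the mean in the chow groups. Usp18, the protease that removes ISG15 and dampens the receptor, was at 1.91, 5.09 and 4.10 FPKM in SC_ConD 1 to 3, 13.8, 3.72, 4.68, 6.63 and 5.89 FPKM in SF_ConD 1 to 5, and 1.36, 5.51, 2.26, 3.05 and 8.21 FPKM in SF_HPD 1 to 5. It differed by 0.70 (SE 0.48, limma adjusted p = 0.954) between SF_ConD and SC_ConD, and SF_ConD 1 was again highest. The difference was 0.39 without SC_ConD 1 and 0.45 without SF_ConD 1, and ran from 0.16 (lymphoid marker covariate) to 1.33 (without SC_ConD 2 and 3) over all alternatives.

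The highest library of the GTPase genes was SC_ConD 2 for 4 of 5 and SF_ConD 1 for Gbp3. Gbp2, a guanylate-binding protein of vacuole and cytosol defence, was at 19.6, 103 and 54.2 FPKM in SC_ConD 1 to 3, 29.2, 14.3, 13.3, 25.3 and 25.2 FPKM in SF_ConD 1 to 5, and 13.5, 1.88, 16.9, 18.3 and 23.3 FPKM in SF_HPD 1 to 5. SC_ConD 2 and 3 lay above all other libraries, and SF_HPD 2 far below. The differences from SC_ConD were -1.20 (SE 0.67, limma adjusted p = 0.905) for SF_ConD and -1.93 (SE 0.67, limma adjusted p = 0.862) for SF_HPD, and without SC_ConD 2 and 3 they were 0.061 and -0.68.

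Gbp7, which carries both cores in its promoter window, was at 6.72, 13.9 and 7.82 FPKM in SC_ConD 1 to 3, 2.64, 1.13, 3.58, 5.15 and 6.26 FPKM in SF_ConD 1 to 5, and 3.34, 1.52, 1.25, 7.26 and 2.48 FPKM in SF_HPD 1 to 5. Every SC_ConD library lay above every SF_ConD library, and SF_HPD 4 lay inside the SC_ConD range. The differences from SC_ConD were -1.20 (SE 0.48, limma adjusted p = 0.861) for SF_ConD and -1.44 (SE 0.48, limma adjusted p = 0.783) for SF_HPD. Without SC_ConD 2 and 3 they were -0.82 and -1.06, against the single library SC_ConD 1.

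Igtp, an immunity-related GTPase of the vacuole, was at 9.92, 58.3 and 36.3 FPKM in SC_ConD 1 to 3, 39.6, 9.91, 8.40, 23.2 and 25.6 FPKM in SF_ConD 1 to 5, and 6.51, 1.89, 6.61, 8.86 and 24.1 FPKM in SF_HPD 1 to 5. It was highest in SC_ConD 2, SF_ConD 1 and SC_ConD 3, and in SC_ConD 1 it was at the level of SF_ConD 2. Its differences were -1.21 (SE 0.62, limma adjusted p = 0.99999) between SF_HPD and SF_ConD and -1.79 (SE 0.71, limma adjusted p = 0.99991) between SF_HPD and SC_ConD, the latter -0.38 without SC_ConD 2 and 3. Irgm1, which regulates the other members of that family, was at 3.92, 22.9 and 13.7 FPKM in SC_ConD 1 to 3, 15.8, 5.51, 3.21, 9.48 and 8.01 FPKM in SF_ConD 1 to 5, and 2.69, 4.16, 6.05, 5.67 and 9.55 FPKM in SF_HPD 1 to 5. It shared its 2 highest libraries, SC_ConD 2 and SF_ConD 1, with Igtp and Isg15. Gbp3 was at 6.20, 16.9 and 12.74 FPKM in SC_ConD 1 to 3, 19.7, 4.41, 4.39, 14.00 and 9.57 FPKM in SF_ConD 1 to 5, and 5.19, 2.05, 6.92, 8.36 and 16.4 FPKM in SF_HPD 1 to 5, highest in SF_ConD 1 and lowest in SF_HPD 2.

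Cxcl9 and Cxcl10 encode ligands of CXCR3 that draw T cells and natural killer cells. Cxcl9 was at 13.6, 292 and 172 FPKM in SC_ConD 1 to 3, 37.6, 16.1, 6.65, 12.3 and 20.9 FPKM in SF_ConD 1 to 5, and 6.52, 0.268, 12.5, 9.61 and 38.9 FPKM in SF_HPD 1 to 5. SC_ConD 2 and 3 stood apart from all other libraries, at 172 FPKM or more against at most 38.9 FPKM, and SF_HPD 2 had 7 reads. The differences from SC_ConD were -2.40 (SE 1.06, limma adjusted p = 0.861) for SF_ConD and -3.35 (SE 1.06, limma adjusted p = 0.665) for SF_HPD, and without SC_ConD 2 and 3 they were 0.23 and -0.72. Cxcl10 was at 1.001, 15.2 and 11.9 FPKM in SC_ConD 1 to 3, 15.8, 0.476, 1.02, 3.82 and 3.32 FPKM in SF_ConD 1 to 5, and 0.665, 0, 1.91, 1.18 and 4.03 FPKM in SF_HPD 1 to 5. It was high in SC_ConD 2 and 3 and in SF_ConD 1, and listed at 0 in SF_HPD 2. Whether the liver transcripts of SC_ConD 2 and 3 took part in the chemokine and GTPase values was not tested.

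**Figure D5:**
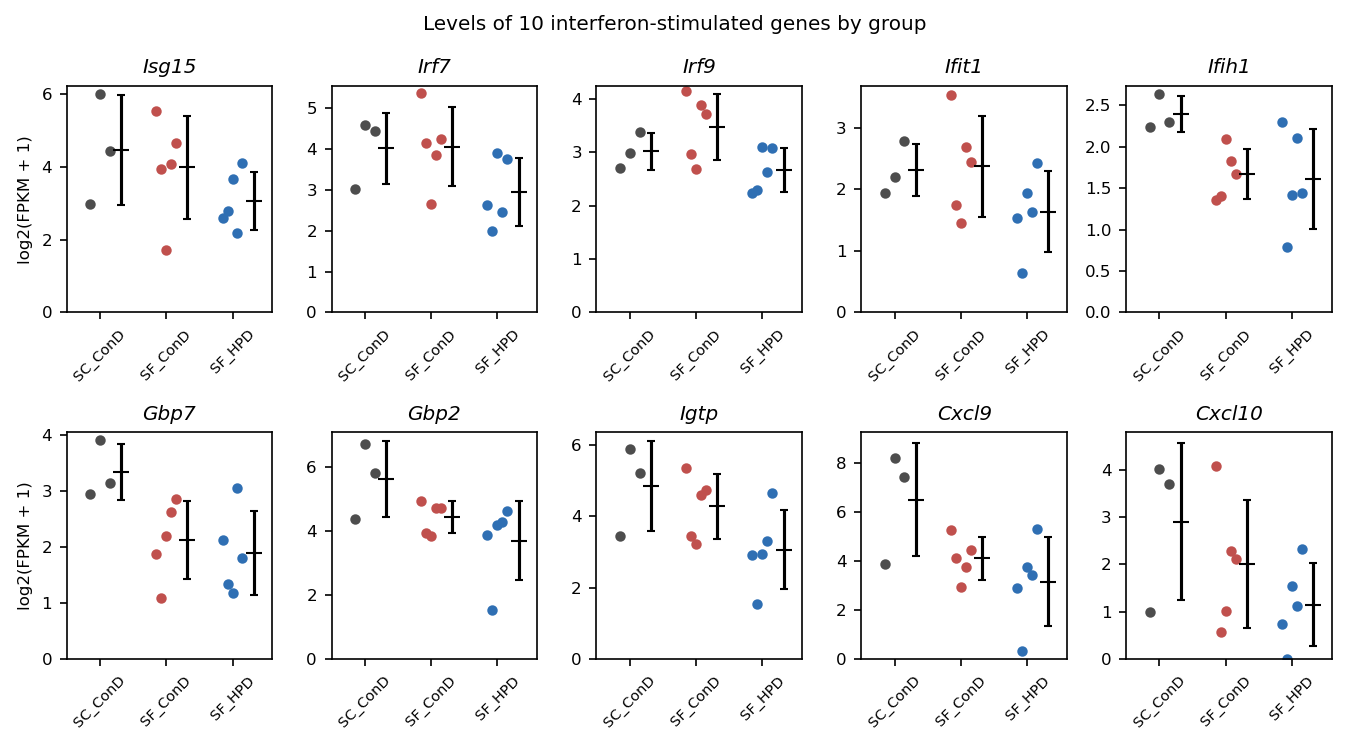
Log2(FPKM + 1) of 10 members by group, with 1 point per mouse (grey SC_ConD, n = 3; red SF_ConD, n = 5; blue SF_HPD, n = 5) and the group mean with its SD as a black bar. Gbp7 and Ifih1 show no overlap between SC_ConD and SF_ConD, and 2 SC_ConD points stand above all others for Cxcl9 and Gbp2.

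Members of different gene length, counted as the exonic bases of the gene model, also differed in how they ran across libraries. The 11 shortest members (756 to 2608 bases) averaged 4.84 on the log2(FPKM + 1) scale in SF_ConD 1 and 2.45 in SF_ConD 3. The 11 longest (5386 to 9306 bases) averaged 2.35 and 2.30 in the same libraries. Over all genes, log2(FPKM + 1) relative to the mean library leaned to long genes in SF_HPD 1 and 4, SF_ConD 3 and SC_ConD 1 (Spearman rho across genes 0.48 to 0.56) and to short genes most in SF_ConD 1 (-0.44). With this trend as a covariate the medians of the members were -0.03, -0.52 and -0.55 in the order of the 3 comparisons. The part of the length trend in single members was not tested.

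Members with and without an ISRE core were set side by side as a description. In SF_HPD against SF_ConD the median was -0.60 for the 16 tested members with a core and -0.58 for the 12 with a window and no core. In SF_HPD against SC_ConD the medians were -0.73 and -0.36. The 7 tested members without a window were at -0.32 and -0.66 in these 2 comparisons. All 5 GTPase genes, with a median of -1.44 in SF_HPD against SC_ConD, hold a core, so core and role are not separate here.

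Upstream of the members, the interferon genes themselves were mostly listed at 0. Of 20 ligand genes 17 were listed at 0 in all 13 libraries, including Ifnb1 and every Ifna gene on the list. The Ifna genes are near copies of each other, and no source used here says how reads shared by copies were counted. Trex1, a DNA exonuclease gene of the sensing list, was also listed at 0 in all 13 libraries. Ifng was at 0.0458, 0 and 0 FPKM in SC_ConD, 0.714, 0, 0, 0.382 and 0.403 FPKM in SF_ConD, and 0, 0, 0, 0.134 and 0 FPKM in SF_HPD. Its 3 highest values were those of the lymphoid-rich SF_ConD libraries. Siglech, a marker of plasmacytoid dendritic cells, which make type I interferon, was at 5.93 to 17.4 FPKM in the 5 lymphoid-rich libraries and at 0 to 2.07 FPKM in the other 8. Other markers on that list of 8 ran differently: Ly6d was highest in SF_HPD 2 (10532 FPKM) and Cox6a2 in SF_HPD 4 (265 FPKM) and SC_ConD 3 (65.6 FPKM). Of the 8, 5 were tested, and their medians were 1.323, -0.95 and 0.42 in the order of the 3 comparisons, with none passing.

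The receptor genes were read in nearly all libraries. Ifngr1, the ligand-binding chain for interferon gamma, was at 63.5, 36.8 and 52.9 FPKM in SC_ConD, 78.04, 80.4, 52.98, 67.1 and 74.4 FPKM in SF_ConD, and 60.3, 8.40, 48.9, 39.9 and 42.4 FPKM in SF_HPD. It differed by -1.03 (SE 0.46, limma adjusted p = 0.99999) between SF_HPD and SF_ConD, and SF_HPD 2 lay below all others. Ifngr2 ranged from 5.44 to 48.3 FPKM, Ifnar1 from 3.79 to 11.2 FPKM and Ifnar2 from 11.2 to 29.9 FPKM. None of the 6 receptor genes passed in any comparison, 1 of 6 was at an unadjusted p under 0.05 and lower in SF_HPD against SF_ConD, beside 1.06% of all genes, and none in the others.

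Of 13 genes of JAK-STAT signalling and its brakes none passed, beside 2 at an unadjusted p under 0.05 and higher in SF_ConD against SC_ConD (2.59% of all genes) and 1 lower in SF_HPD against SC_ConD (2.67% of all genes). Ptpn6, the gene of the phosphatase SHP-1 of blood cells, differed by 2.47 (SE 0.92, limma adjusted p = 0.813) between SF_ConD and SC_ConD, where T and natural killer cell markers were higher by a median of 1.87. Socs3, a brake on cytokine receptors, was at 4.88, 12.2 and 11.6 FPKM in SC_ConD, 9.96, 5.40, 4.41, 9.55 and 6.20 FPKM in SF_ConD, and 3.71, 1.16, 4.35, 6.72 and 5.02 FPKM in SF_HPD, and differed by -1.05 (SE 0.43, limma adjusted p = 0.99991) between SF_HPD and SC_ConD. The kinase genes ranged from 7.69 to 49.2 FPKM for Jak1, 3.32 to 17.7 for Jak2 and 1.24 to 5.49 for Tyk2.

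Of 20 genes listed for the sensing step before interferon, 14 were tested and none passed or reached an unadjusted p of 0.05. Of these, Unc93b1, which carries endosomal Toll-like receptors, differed by 0.92 (SE 0.44, limma adjusted p = 0.863) between SF_ConD and SC_ConD, and the adaptor gene Ticam1 by -0.76 (SE 0.37, limma adjusted p = 0.99999) between SF_HPD and SF_ConD.

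Of 40 other interferon-induced genes 36 were tested and none passed. In SF_ConD against SC_ConD 4 were higher and 0 lower at an unadjusted p under 0.05, beside 2.59% and 3.15% of all genes, with 20 above and 16 below 0 and a median of 0.15. Apobec3, a cytidine deaminase that restricts retroviruses, was at 3.87, 1.34 and 4.63 FPKM in SC_ConD, 14.00, 6.19, 10.98, 13.6 and 7.98 FPKM in SF_ConD, and 2.20, 3.37, 3.73, 7.68 and 6.91 FPKM in SF_HPD, a difference of 1.47 (SE 0.41, limma adjusted p = 0.716). In SF_HPD against SF_ConD 3 were lower and 0 higher, beside 1.06% and 0.832% of all genes, with 32 of 36 below 0 (48.1% of all genes) and a median of -0.44. Ly6e, a membrane protein that limits viral entry, was at 140.0, 55.7 and 133 FPKM in SC_ConD, 246, 147, 304, 266 and 135 FPKM in SF_ConD, and 71.2, 20.97, 121, 101 and 83.7 FPKM in SF_HPD, a difference of -1.58 (SE 0.51, limma adjusted p = 0.99999), and Apobec3 differed by -1.04 (SE 0.36, limma adjusted p = 0.99999).

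Of 24 genes known best as interferon gamma targets 23 were tested and none passed. Their medians were 0.46, -0.64 and -0.36 in the order of the comparisons, with 22 of 23 below 0 in SF_HPD against SF_ConD, beside 48.1% of all genes. In SF_ConD against SC_ConD they were split, 12 above and 11 below 0, with 2 lower and 0 higher at an unadjusted p under 0.05, beside 3.15% and 2.59% of all genes. Iigp1, an immunity-related GTPase, was at 18.4, 286 and 183 FPKM in SC_ConD, 26.6, 20.1, 47.4, 33.4 and 13.8 FPKM in SF_ConD, and 8.15, 1.70, 11.4, 11.5 and 12.5 FPKM in SF_HPD. Every SF_HPD value lay below every value of the other groups, beside 0.853% of all genes lower without overlap against SC_ConD and 0.229% against SF_ConD. SC_ConD 2 and 3 stood apart above, as for Cxcl9. The differences were -3.52 (SE 0.79, limma adjusted p = 0.394) between SF_HPD and SC_ConD and -1.62 (SE 0.69, limma adjusted p = 0.99999) between SF_HPD and SF_ConD.

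Ido1, which degrades tryptophan, was at 26.2, 0 and 70.8 FPKM in SC_ConD, 6.84, 26.3, 51.00, 58.3 and 13.97 FPKM in SF_ConD, and 1.26, 0, 12.2, 0 and 2.82 FPKM in SF_HPD. It was listed at 0 in SC_ConD 2, where Cxcl9 and Iigp1 were highest, so these gamma targets did not share an order of libraries. Ido1 differed by -3.28 (SE 1.07, limma adjusted p = 0.99999) between SF_HPD and SF_ConD.

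The other marker lists were read beside the member medians. In SF_HPD against SF_ConD, all 16 B cell and lymph node markers tested and all 19 T and natural killer cell markers lay lower (medians -1.32 and -1.13), and macrophage markers were split 6 to 6 (median -0.06). Markers of adipocytes (11 of 12, median -0.54), liver (13 of 14, median -1.20) and epithelium (6 of 7, median -1.54) also lay lower, while all 8 skeletal muscle markers tested lay higher (median 1.90). In SF_ConD against SC_ConD the lymphoid lists lay higher (medians 2.53 and 1.87), the liver, skeletal muscle and adipocyte lists lower (medians -3.74, -2.04 and -0.59) and macrophage markers near 0 (median 0.02). In SF_HPD against SC_ConD, where most members lay lower, the B cell and lymph node markers lay higher (16 of 16, median 1.317) and so did 16 of 19 T and natural killer cell markers (median 0.84). All 12 adipocyte and all 14 liver markers lay lower there (medians -1.12 and -4.57). No marker of any list passed in any comparison. The part of this tissue content in the member values was not tested beyond the fits named here.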

How the data were processed

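The deposited table holds FPKM per gene for 13 libraries, each from an individual mouse per the labels, with gene length as a further column of another unit. The authors' FPKM values were made with tools of which CASAVA, HISAT2 2.0.5 and featureCounts 1.5.0-p3 are named, with build mm8 but without role or order, per the submitters' processing notes. Coordinates of all 37 members equal those of GENCODE M21 on GRCm38, so that build is used. No source used here gives the strand setting.

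Each FPKM value times gene length was a whole multiple of its library's smallest step for 99.9883% to 100% of values per library (tolerance 0.05), which recovered 14815592 to 18303302 reads per library. The total implied as the FPKM divisor was 0.479 to 1.23 times these reads, and no source used here says where it comes from. FPKM summed over all genes ran from 262812 in SF_HPD 1 to 1320720 in SF_HPD 2. Ranks of libraries by FPKM depend on this divisor.

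Values were taken as log2(FPKM + 1), which understates changes of low genes. Group means over all 13 libraries were fitted with limma 3.58.1 (R 4.3.3), using eBayes with trend and robust settings. Tests were two-sided, and p-values were adjusted by Benjamini-Hochberg across the 14421 genes with at least 1 FPKM in at least 3 libraries, at a threshold of 0.05. The fit was run on simulated counts drawn around 1 common profile with planted changes. These held none of the differences in tissue content or length trend between the libraries, so they say nothing about those. Members, lists and the rule for named genes were chosen with earlier results of these data known. The rule named 11 members and the 6 with the smallest unadjusted p in each comparison, and up to 4 genes of each pathway list. Fold changes by role are medians. Motifs were searched in RefSeq promoters of GRCm38.p6, and near copies in GENCODE M21 transcripts.

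Same-numbered libraries of SC_ConD and SF_HPD deviated together from their group means (correlations 0.711, 0.333 and 0.191 across genes). A fit with the number as a block was made for that reason, although no label states where a pairing would come from. SF_HPD 3 correlated more with another SC_ConD number than with its own. The same-number correlations were -0.558, 0.190 and -0.316 in SF_ConD against SC_ConD. They ran from -0.670 to 0.405 in SF_HPD against SF_ConD. Alternatives are listed with their effects in the closing section.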

Additional observations from a re-analysis of the deposited data

Results flagged for a closer look

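In 76 sets of 5 libraries, each 1 member or the members' average in 1 group, 3 held a value far from the other 4, where chance alone gives about 1 in 20. Ifit3b was at 6.80 FPKM in SF_ConD 1, with the next value at 2.35 FPKM. Oasl1 was at 0.177 FPKM in SF_HPD 2, with the next at 0.844 FPKM, and Gbp2 was at 1.88 FPKM in SF_HPD 2, with the next at 13.5 FPKM. SF_HPD 2 is the library with the lowest adipocyte markers (4.60 on the log2 scale) and the lowest share of reads on members (0.0156%). The part of this in the 2 low values was not tested.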

How the results depend on the processing

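Up to 28 other settings were tried for each result. No member passed in any of them except Cxcl9 in SF_HPD against SC_ConD without SC_ConD 1 (-4.67, adjusted p = 0.0406), over alternatives whose adjusted p ran from 0.0406 to 1. Leaving out 1 library gave 0 to 194 genes called in SF_ConD against SC_ConD, 0 to 1 in SF_HPD against SF_ConD and 0 to 196 in SF_HPD against SC_ConD, with 0 to 1 members in the last. The counts of 194 and 196 of 14421 genes came without SC_ConD 1, as did the 1 member. In SF_HPD against SC_ConD, 25 of 27 alternatives kept the count of genes called. Leaving out SC_ConD 1 was thus not the only setting that moved that count, and 196 was the highest. Without SC_ConD 1, only SC_ConD 2 and 3, the libraries with the most liver transcripts, remain in their group. The 1 gene in SF_HPD against SF_ConD came without SF_HPD 5. The median of the members in SF_ConD against SC_ConD moved to -0.52 with lymphoid marker level as a covariate and to -0.63 without the lymphoid-rich libraries. In that comparison Cxcl9 turned to 0.23 and Gbp2 to 0.061 without SC_ConD 2 and 3. The cause was not tested. The medians of the members in SF_HPD against SF_ConD and SF_HPD against SC_ConD stayed below 0 in every setting run (-1.02 to -0.10 and -0.84 to -0.12). TPM moved the median of all genes to 0.16 in SF_ConD against SC_ConD and 0.25 in SF_HPD against SC_ConD, and voom moved it to 0.27, -0.15 and 0.15 in the 3 comparisons. With the replicate number as a block the median in SF_HPD against SC_ConD was -0.77, 0 members passed, and no other call changed. Reads limit the lowest members: Oas2, Oas3, Mx1, Mx2, Ifi44 and Cxcl10 had 0 reads in at least 1 library.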
